A study of Capra hircus with 20 samples.

Results

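Each nucleus of the hypothalamus keeps its own set of transcription factors from early development into adult life, and 9 genes of such factors were followed here through the postnatal growth of female goats. They were *SIX3*, *SIX6*, *LHX1*, *RAX*, *FEZF1*, *NR5A1*, *FOXB1*, *LHX6* and *TBX3*, chosen by name and matched to the gene identifiers of the deposited table through the goat annotation. All 9 had a row among the 21071 genes. The libraries came from the hypothalamus of Jining grey goats aged 1 day (D1), 60 days (M2), 120 days (M4) and 180 days (M6), with 5 goats per stage, 1 strand-specific library per goat depleted of rRNA, and the same feeding and management for every goat. No treatment or allele is named for any goat, and age is the factor compared. The values are FPKM, the fragments of a gene divided by the length of its exons and the number of reads mapped in that library, so levels may be compared between genes.

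Homeobox, forkhead and nuclear receptor proteins divide the embryonic hypothalamus into areas, and many of them stay on in the neurons they helped to form. SIX3 and SIX6 are related homeodomain proteins of the anterior forebrain and eye field, and SIX6 and LHX1 act in the suprachiasmatic nucleus, the circadian clock of the brain. RAX is needed for tanycytes, the glia that line the floor of the third ventricle. FEZF1 and NR5A1 (SF-1) mark the ventromedial nucleus, FOXB1 the mammillary bodies, and TBX3 the arcuate nucleus, where it acts in POMC neurons. LHX6 is a LIM homeodomain protein of GABA neurons, both in the hypothalamus and in the basal forebrain next to it.

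Before the members are described, the libraries need a check against their label. *NKX2-1*, which patterns the ventral hypothalamus, was between 0 and 3.17 FPKM and was listed at 0 in 4 libraries. *OTP*, a factor of neuroendocrine neurons, was between 0 and 11.1 FPKM, and *SIM1*, a factor of the paraventricular nucleus, between 0 and 13.6 FPKM. The level of these hypothalamic genes thus differed widely between libraries of one label. Genes of neighbouring regions stood apart in 5 libraries. In M4 replicate 1, *SLC17A7*, the glutamate transporter of cortical neurons, reached 68.0 FPKM against at most 1.07 in the other libraries, and the summed FPKM of the 5 telencephalon markers was 63.5 times the median of the 20 libraries. In M4 replicate 2, *GBX2*, a factor of the thalamus, was 18.2 FPKM, and the 6 thalamus markers summed to 4.92 times the median. In D1 replicate 4, M6 replicate 2 and M2 replicate 4, the 6 striatum markers summed to 47.8, 19.7 and 13.4 times the median. These 5 libraries were kept, and values without them are given for some results, among them the member fold changes that reversed. Spreads within stages, most similar genes and medians of other gene lists are given for all 20 libraries alone. Pituitary markers were low, with a summed level of 7 genes between 0 and 3.77 FPKM. The summed FPKM of the 6 oligodendrocyte markers was between 117 and 2929.7 and was lowest in M4 replicate 1, M6 replicate 4, D1 replicate 4 and M4 replicate 2. Across all 21071 genes on the log2(FPKM + 0.1) scale, libraries of one stage had a median correlation of 0.946 (range 0.910 to 0.979). It was 0.947 for libraries of different stages, and 1790 genes at 0 in every library were included.

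The 9 members were genes of low level. Their median FPKM over the 20 libraries was 2.33 for *SIX3*, 0.612 for *FOXB1*, 0.360 for *TBX3*, 0.272 for *LHX1* and 0.123 for *LHX6*, and it was 0 for *FEZF1*, *SIX6*, *NR5A1* and *RAX*. Neighbours in this order did not differ beyond their spread over libraries: the smallest adjusted p of the 8 neighbouring pairs was 0.0801 (two-sided permutation test with 100000 sign changes of the log2 difference over the 20 libraries, Benjamini-Hochberg). *SIX3* was above *FOXB1* in 15 of the 20 libraries and below it in 4. *LHX1* had the higher median and *LHX6* the higher mean, since *LHX6* was carried by few libraries. The detection of the members differed in the same way. *TBX3* was above 0 in 20 libraries, *SIX3* and *FOXB1* in 19 each, *LHX6* and *LHX1* in 18 each, *FEZF1* in 9, *SIX6* in 7, *NR5A1* in 6 and *RAX* in 5. A listed 0 may be a failed estimate and not an absent transcript, so means are given for groups without a 0. In bulk tissue, fewer cells of a type and less RNA per cell cannot be told apart. The plot of the members by stage shows each library.

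**Figure D1:**
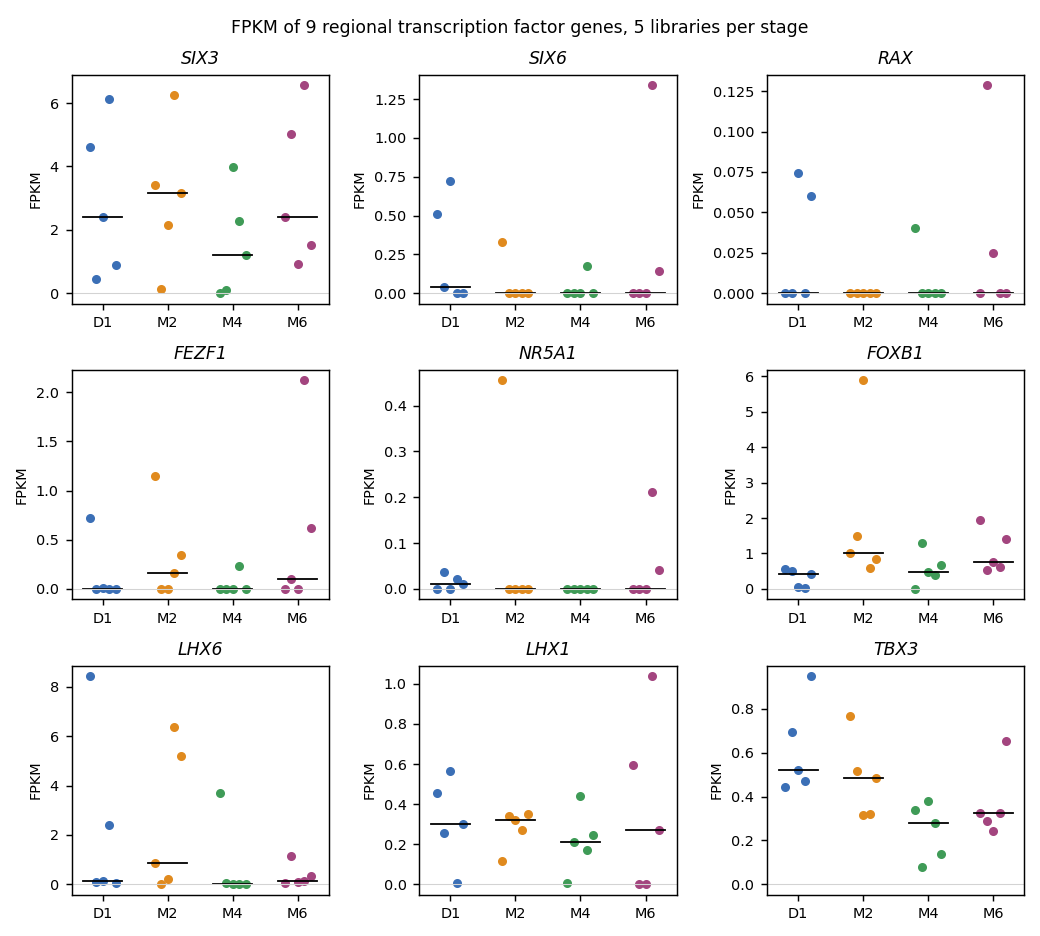
FPKM (y axis, linear and scaled separately for each gene) of the 9 genes in each library at D1, M2, M4 and M6. Each point is 1 goat and the black line is the median of 5; single libraries rise far above the rest in most panels, as *FOXB1* at 5.88 FPKM in M2 and *SIX6* at 1.34 FPKM in M6, while *TBX3* stays between 0.0792 and 0.949 FPKM.

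*SIX3* (gene 102179678, chromosome 11, 26990503 to 26994583 in ARS1.2) was the most abundant member. The 5 libraries held 4.62, 0.463, 2.39, 6.13 and 0.879 FPKM at D1, and 3.42, 0.127, 2.16, 6.25 and 3.17 FPKM at M2. They held 0, 0.106, 3.99, 2.27 and 1.21 FPKM at M4, and 2.41, 5.03, 0.913, 6.57 and 1.51 FPKM at M6. The groups overlapped throughout, and each stage held both low and high libraries. The mean was 2.90 ± 2.43 (SD, n = 5) at D1, 3.03 ± 2.22 at M2 and 3.29 ± 2.42 at M6. The lowest 2 libraries, M4 replicates 1 and 2, were those high in telencephalon and thalamus markers, and 3 of the 4 highest were those high in striatum markers. The log2 fold change of M4 vs. D1 was -1.46 (SE 1.00, adjusted p = 0.733, limma) in all libraries and 0.55 without the 5 libraries. Likewise M4 vs. M2 went from -1.43 to 0.58, and M6 vs. M4 from 1.81 to -0.03. The low level of *SIX3* at M4 thus rested on these libraries.

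*SIX6* (gene 102178078, chromosome 10, 30496189 to 30498215) was found in few goats. It was 0.512, 0.0403, 0.725, 0 and 0 FPKM in the D1 libraries. At M2 it was listed above 0 in replicate 1 alone, at 0.331 FPKM, and at M4 in replicate 4 alone, at 0.177 FPKM. At M6 it was 1.34 FPKM in replicate 4, 0.142 in replicate 5 and 0 in the other 3. Each stage had 2 or more libraries at 0 and the groups overlapped. M6 replicate 4 held 41.0% of the FPKM summed over the 20 libraries. The 5 libraries high in markers of other regions were all at 0 for *SIX6*. The largest of the 6 fold changes, M4 vs. D1, was -0.94 (SE 0.77, adjusted p = 0.792, limma).

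*LHX1* (gene 102168572, chromosome 19, 12920703 to 12928185) was low but widespread. It was 0.455, 0.256, 0.567, 0.00804 and 0.301 FPKM at D1, and 0.118, 0.339, 0.322, 0.273 and 0.353 FPKM at M2. It was 0.00858, 0.209, 0.441, 0.170 and 0.245 FPKM at M4, and 0.597, 0, 0, 1.04 and 0.271 FPKM at M6. The M2 libraries lay closest together, at 0.281 ± 0.0959 (SD, n = 5), and M6 held both the highest library and the 2 libraries at 0. Of the 4 lowest libraries, 3 were among those high in telencephalon or striatum markers (M4 replicate 1, D1 replicate 4 and M6 replicate 2). The 6 fold changes of *LHX1* were between -0.40 and 0.16, with an SE of 0.66, and the smallest adjusted p was 0.870 (limma).

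*RAX* (gene 108633766, chromosome 24, 58436521 to 58441135) was the lowest member. It was listed at 0.0747 and 0.0600 FPKM in D1 replicates 3 and 5, at 0.0401 in M4 replicate 1, and at 0.129 and 0.0246 in M6 replicates 2 and 3. The other 15 libraries, with all 5 of M2, were at 0. With 1 library at or above 0.1 FPKM, *RAX* was below the filter on low values and was not tested between stages. *CRYM*, a thyroid hormone binding protein of tanycytes that other brain cells also use, had a median of 2.64 FPKM. It was highest in D1 replicate 4 (74.5 FPKM) and M4 replicate 1 (55.9 FPKM), which are among the libraries high in markers of other regions. *GPR50*, another gene of tanycytes, was listed at 0 in 19 libraries, and *LHX2* of the tanycyte list in 6. *DIO2* and *NES* of that list were above 0 in every library, with medians of 4.58 and 2.42 FPKM. The share of tanycytes was not measured.

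Both factors of the ventromedial nucleus were sparse. *FEZF1* (gene 102191488, chromosome 4, 33472938 to 33476153) was 0.720 FPKM in D1 replicate 1, 0.0122 in D1 replicate 3 and 0 in the other 3 D1 libraries. At M2 it was 1.15, 0, 0, 0.165 and 0.347 FPKM, and at M4 it was 0.23 FPKM in replicate 4 and 0 in the other 4. At M6 it was 0, 0.0981, 0, 2.12 and 0.616 FPKM. Every stage held 2 or more libraries at 0, so the groups overlapped. M6 vs. M4 had the largest fold change, at 1.32 (SE 0.87, adjusted p = 0.788, limma). *NR5A1* (gene 102186219, chromosome 11, 95033645 to 95062267) was 0.455 FPKM in M2 replicate 1 and 0.212 FPKM in M6 replicate 4, and in the other libraries it was at most 0.0410 FPKM. It was listed at 0 in 14 libraries, with all 5 of M4 among them, and did not pass the filter. M2 replicate 1 held 58.7% of its summed FPKM. The same 2 libraries were the highest for *FEZF1*.

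*FOXB1* (gene 102171793, chromosome 10, 52911718 to 52913705) had the largest difference between stages relative to its error. It was 0.566, 0.510, 0.0532, 0.0134 and 0.414 FPKM at D1, and 1.03, 1.49, 5.88, 0.599 and 0.840 FPKM at M2. It was 0, 1.29, 0.469, 0.397 and 0.684 FPKM at M4, and 1.94, 0.520, 0.749, 0.626 and 1.42 FPKM at M6. Each M2 library was above each D1 library, by a narrow gap between 0.566 and 0.599 FPKM, and each other pair of stages overlapped. The mean was 0.311 ± 0.260 (SD, n = 5) at D1, 1.97 ± 2.21 at M2 and 1.05 ± 0.607 at M6. M2 vs. D1 had a log2 fold change of 2.18 (SE 0.70, 95% interval 0.73 to 3.64), with an adjusted p of 0.179 over all tested genes in limma, so it did not pass the test. The two-sided exact permutation test gave p = 0.00794, the smallest that 5 against 5 libraries allow, and 0.167 after adjustment over the 42 tests of members. Among all tested genes, 1.50% had M2 libraries that lay above the D1 libraries without overlap. M6 vs. D1 had a log2 fold change of 1.67 (SE 0.70, adjusted p = 0.633, limma).

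The M2 level of *FOXB1* leaned on replicate 3. Without that library the fold change of M2 vs. D1 was 1.68 (adjusted p = 0.380, limma), and without the 5 libraries high in markers of other regions it was 2.07 (adjusted p = 0.122). M2 replicate 3 also held the highest level of *LMX1B*, a LIM homeodomain factor, at 8.34 FPKM against at most 2.09 elsewhere. The 10 genes of the mammillary and subthalamic list, *LMX1B* among them, summed to 17.7 FPKM there, 4.72 times the median. *LMX1B* alone held 8.34 FPKM of this sum. The list also summed to 2.64 times the median in D1 replicate 2 and to 2.58 times in M2 replicate 2. In M2 replicate 3, *KLHDC1* took 23.9% of the summed FPKM, against 9.83% in M6 replicate 3, the other library led by this gene. The part of these in the result was not tested.

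*LHX6* (gene 102169303, chromosome 11, 92670773 to 92696649) varied the most between goats. It was 8.44, 0.0799, 0.116, 2.41 and 0.0687 FPKM at D1, and 0.880, 0.0239, 0.197, 6.36 and 5.19 FPKM at M2. It was 3.71, 0.0597, 0, 0 and 0.00941 FPKM at M4, and 0.0503, 1.15, 0.114, 0.129 and 0.318 FPKM at M6. Within D1, M2 and M4, high and near-zero libraries stood side by side, and the stages overlapped. The largest fold change was -2.17 in M4 vs. M2 (SE 1.27, adjusted p = 0.627, limma), and the 95% interval ran from -4.82 to 0.48. Without the 5 libraries high in markers of other regions it was -2.68 (adjusted p = 0.501, limma). *LHX6* was at least 0.880 FPKM in 7 libraries and at most 0.318 FPKM in the other 13. *LHX8*, a relative of LHX6 that also acts in the basal forebrain, was between 2.17 and 28.5 FPKM in 6 of these 7 libraries and was at most 0.381 FPKM in the 13. M4 replicate 1, the library high in telencephalon markers, differed from the other 6, with *LHX8* listed at 0. The part of neighbouring tissue in the level of *LHX6* was not tested.

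*TBX3* (gene 102185207, chromosome 17, 11055331 to 11071045) was the member found in every library. It was 0.446, 0.695, 0.519, 0.471 and 0.949 FPKM at D1, and 0.767, 0.515, 0.318, 0.319 and 0.486 FPKM at M2. It was 0.340, 0.0792, 0.381, 0.281 and 0.141 FPKM at M4, and 0.327, 0.289, 0.244, 0.324 and 0.651 FPKM at M6. Each M4 library was below each D1 library, and the other pairs of stages overlapped. The mean was 0.616 ± 0.210 (SD, n = 5) in D1 goats, 0.481 ± 0.185 in M2 goats, 0.244 ± 0.130 in M4 goats and 0.367 ± 0.163 in M6 goats. M4 vs. D1 had a log2 fold change of -1.11 (SE 0.37, 95% interval -1.87 to -0.34, adjusted p = 0.379, limma), so it did not pass the test. The exact permutation test gave p = 0.00794, the smallest possible, and 0.167 after adjustment over the 42 tests. Among all tested genes, 1.52% had M4 libraries below the D1 libraries without overlap. Without the 5 libraries the fold change was -1.05 (adjusted p = 0.547, limma). Other genes of the arcuate nucleus had a median fold change of -1.37 in M4 vs. D1 over the 9 tested, against -0.07 over all tested genes. Of the 9, 0 passed the test, and 3 had an unadjusted p under 0.05 in limma (8.71% of all tested genes). By library, D1 replicate 5 was the highest for *TBX3*, and its arcuate genes summed to 0.310 times the median of the 20 libraries. D1 replicate 3 had the highest such sum, 4.94 times the median, with *TBX3* at 0.519 FPKM. Of this sum of 48.3 FPKM, *AGRP* held 21.7 and *NPY* 14.9. *POMC* was 1.59 FPKM in D1 replicate 5 and 4.38 FPKM in D1 replicate 3, against a median of 1.60 over the 20 libraries. A relation of *TBX3* to these genes was not tested.

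Compared with all tested genes, the spread between goats of one stage was wide for 6 of the 7 members that passed the filter on low values, which asked for at least 0.1 FPKM in at least 5 libraries. The SD of log2(FPKM + 0.1) within stages was 2.22 for *LHX6*, 1.75 for *SIX3*, 1.47 for *FEZF1*, 1.26 for *SIX6*, 1.17 for *FOXB1* and 1.07 for *LHX1*. These lay between the 83.8th and the 99.5th percentile of the 16771 tested genes, whose median was 0.568. *TBX3* had an SD of 0.477, at the 38.4th percentile, although its level was low. The SD on this scale differs with the level of a gene, so the median SD of the 1000 tested genes nearest in mean level is given beside each member as a description. It was 0.761 for *LHX6*, 0.607 for *SIX3*, 1.10 for *FEZF1*, 0.945 for *SIX6*, 0.927 for *FOXB1*, 1.11 for *LHX1* and 1.12 for *TBX3*. *LHX1* thus varied about as much as genes of its level, *FOXB1*, *SIX6* and *FEZF1* lay somewhat above theirs, *LHX6* and *SIX3* lay far above and *TBX3* lay below. *LHX6* was matched on its mean of 1.47 FPKM, while its median was 0.123 FPKM, and a match on the median was not made. The plot of this SD sets the members among all tested genes.

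**Figure D2:**
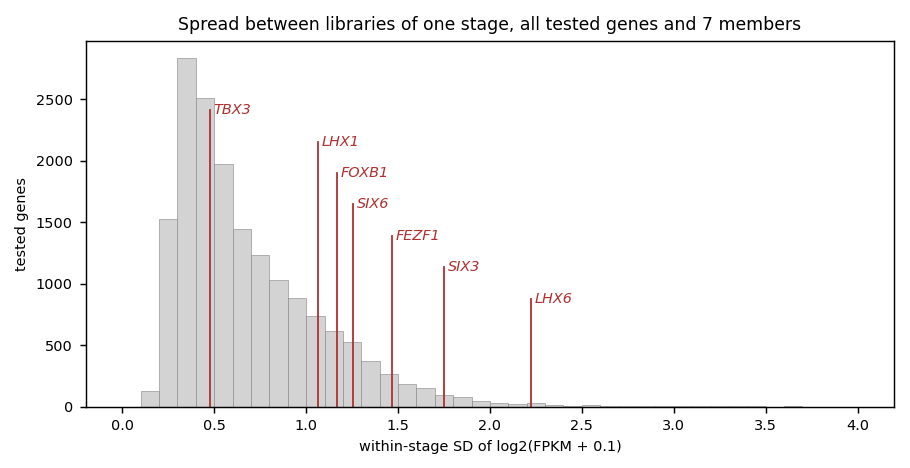
Number of tested genes (y axis) by the SD of log2(FPKM + 0.1) between libraries of one stage (x axis), as grey bars for 16771 genes. Red lines mark 7 members: *TBX3* at 0.477 lies left of the median of 0.568, and the other 6 lie to the right, between 1.07 and 2.22.

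Against this spread, none of the 7 tested members passed the threshold in any of the 6 comparisons between stages (adjusted p under 0.05 over all tested genes with a log2 change of 1 or more in size, limma). The share of all tested genes that passed was 0.0537% for M4 vs. D1 and 0.00596% for M6 vs. D1, and 0.00% for the other 4 comparisons, so a count of 0 of 7 was close to this background. At an unadjusted p under 0.05, limma gave 2 members for M4 vs. M2 (8.68% of all tested genes). It gave 1 member for M2 vs. D1 (15.6%), 1 for M4 vs. D1 (8.71%) and 1 for M6 vs. D1 (7.41%). It gave 0 for M6 vs. M4 (6.87%) and for M6 vs. M2 (6.14%). The exact permutation tests gave 4 of 42 with an unadjusted p under 0.05, and the smallest adjusted value was 0.167. The F test over the 4 stages gave 0 members at an adjusted p under 0.05 (0.00596% of all tested genes) and 2 at an unadjusted p under 0.05 (10.4%), *FOXB1* with an adjusted p of 0.423 and *TBX3* with 0.468. The 95% interval of each of the 42 fold changes reached past 1 in size, so the design left room for a change of 2-fold in every member and comparison.

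**Figure D3:**
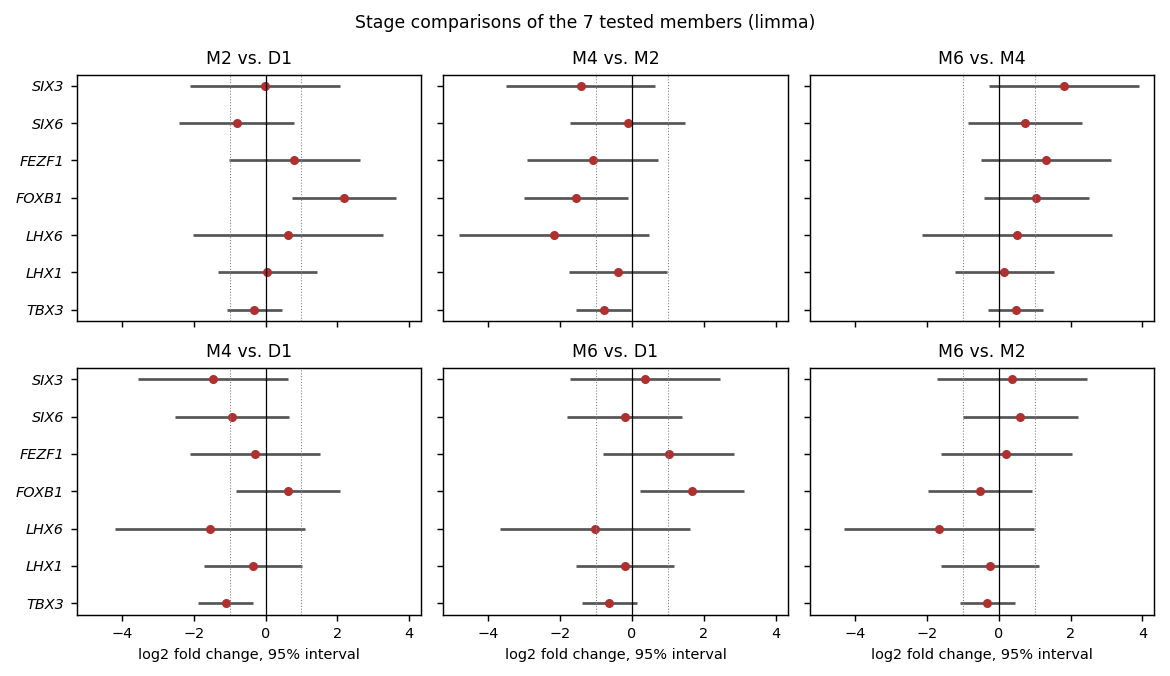
Log2 fold change (x axis) of 7 tested members in each of the 6 stage comparisons, with points for the limma estimates, bars for the 95% intervals and dotted lines at -1 and 1. The interval of *FOXB1* in M2 vs. D1, 0.73 to 3.64, and that of *TBX3* in M4 vs. D1, -1.87 to -0.34, leave out 0, and each bar extends past a dotted line.

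M4 was the stage with the fewest high members. In M4 vs. M2, 7 of 7 fold changes were negative, with a median of -1.10 against -0.02 over all tested genes. In M6 vs. M4, which shares the M4 libraries, 7 of 7 were positive, with a median of 0.73 against 0.04. In M4 vs. D1, 6 of 7 were negative, with a median of -0.94 against -0.07. Without the 5 libraries high in markers of other regions, 2 of which are M4 libraries, the counts were 5 of 7 negative, 6 of 7 positive and 5 of 7 negative, and the medians were -0.77, 0.79 and -0.38. No M4 library was among the 3 highest of any member. In the other comparisons the signs were mixed, with 4 of 7 positive in M2 vs. D1, 3 of 7 in M6 vs. D1 and 3 of 7 in M6 vs. M2.

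Single goats carried much of the signal. M6 replicate 4 was the highest library for *SIX3*, *SIX6*, *FEZF1* and *LHX1*, and 8 of the 9 members reached 0.1 FPKM there. It was also the highest for *OTP* and *SIM1*, and the genes of the paraventricular and supraoptic nuclei summed to 26.9 times the median. Of this sum of 725 FPKM, the peptide genes *OXT* and *AVP* held 413 and 201. M2 replicate 1 also had 8 members at 0.1 FPKM or more, and D1 replicate 1 and M6 replicate 5 had 7 each. At the other end, M4 replicate 1 had 2 such members and M4 replicate 2 and D1 replicate 4 had 3 each. These 3 libraries are among the 5 high in markers of other regions, but the other 2 were not low, with 6 members in M2 replicate 4 and 5 in M6 replicate 2. The map of members and marker sums sets the libraries side by side.

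**Figure D4:**
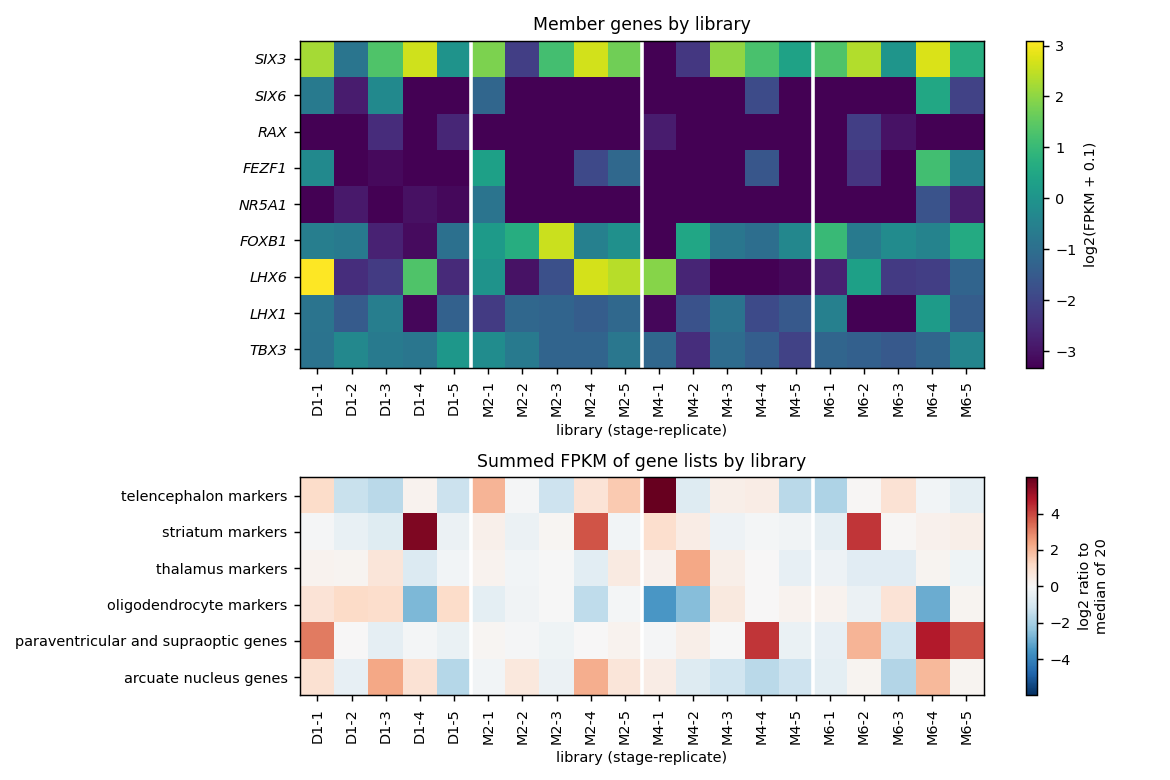
Upper map, log2(FPKM + 0.1) of the 9 members (rows) in the 20 libraries (columns, stage and replicate); lower map, log2 ratio of the summed FPKM of 6 gene lists to its median over the 20 libraries. M4-1 is dark in the upper map for each member but *LHX6* and *TBX3*, with *RAX* just above 0, and red for telencephalon markers (63.5 times the median); M6-4 is bright for *SIX3*, *SIX6*, *FEZF1* and *LHX1* and red for paraventricular and supraoptic genes (26.9 times).

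Members were then compared over the 20 libraries to ask which of them varied together. Of the 36 pairs, *SIX6* and *FEZF1* passed adjustment, with Pearson's r = 0.72 (permutation p = 0.00127, adjusted p = 0.0457) and Spearman's rho = 0.71 (permutation p = 0.00056, adjusted p = 0.0202). Both were above 0 in 6 libraries, *SIX6* alone in 1, *FEZF1* alone in 3 and neither in 10, so the relation was mainly one of detection. Within the 6 libraries with both, r was 0.20. Leaving out the 2 libraries farthest from the median of *SIX6* gave r = 0.82, and of *FEZF1* r = 0.49. It was 0.72 without the 5 libraries high in other markers and 0.80 for deviations from the stage means. *FEZF1* and *NR5A1*, both of the ventromedial nucleus, had r = 0.68 (permutation p = 0.00307, adjusted p = 0.0553) and rho = 0.34 (permutation p = 0.144, adjusted p = 0.647), and r fell to 0.16 without the 2 farthest libraries, so it rested on these. The related *SIX3* and *SIX6* had r = 0.36 (permutation p = 0.110, adjusted p = 0.460) and rho = 0.27 (permutation p = 0.242, adjusted p = 0.718).

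The genes most like each member, by Pearson's r of log2(FPKM + 0.1) over the 20 libraries among all tested genes, are given as a description, since the libraries share depth, tissue and stage. Among the genes most like *LHX6* were *TBR1* (r = 0.86), a cortical factor, and *LHX8* (r = 0.85). *FEZF1* was most like *OTP* (r = 0.86), *INSM2* (r = 0.84) and *HMX3* (r = 0.84), a homeobox gene of the hypothalamus. *SIX6* was also most like *OTP* (r = 0.85), then *MC3R* (r = 0.78), a melanocortin receptor, and *IRS4* (r = 0.72), an insulin receptor substrate. *LHX1* was most like *ANKRD55* (r = 0.85), its relative *LHX5* (r = 0.83) and the GABA receptor subunit gene *GABRE* (r = 0.78). *SIX3* was most like *FZD5* (r = 0.85), a Wnt receptor, *RXRG* (r = 0.80), a retinoid receptor, and *LOC102173969* (r = 0.75).

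For the remaining members the most similar genes were less informative. *FOXB1* was most like *TBC1D2* (r = 0.81), *GLTSCR1* (r = 0.80) and *LOC106503399* (r = 0.80), which all peaked in M2 replicate 3 too. *TBX3* was most like *PDCD1* (r = 0.74), *EVC* (r = 0.71) and *VAMP8* (r = 0.71). *NR5A1* was most like *BCL2L14* (r = 0.85), but r was -0.02 without the 2 libraries farthest from its median. *RAX* was most like *MTTP* (r = 0.66), and r was 0.19 without the 2. With few libraries above 0, these last values described 1 or 2 goats.

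**Figure D5:**
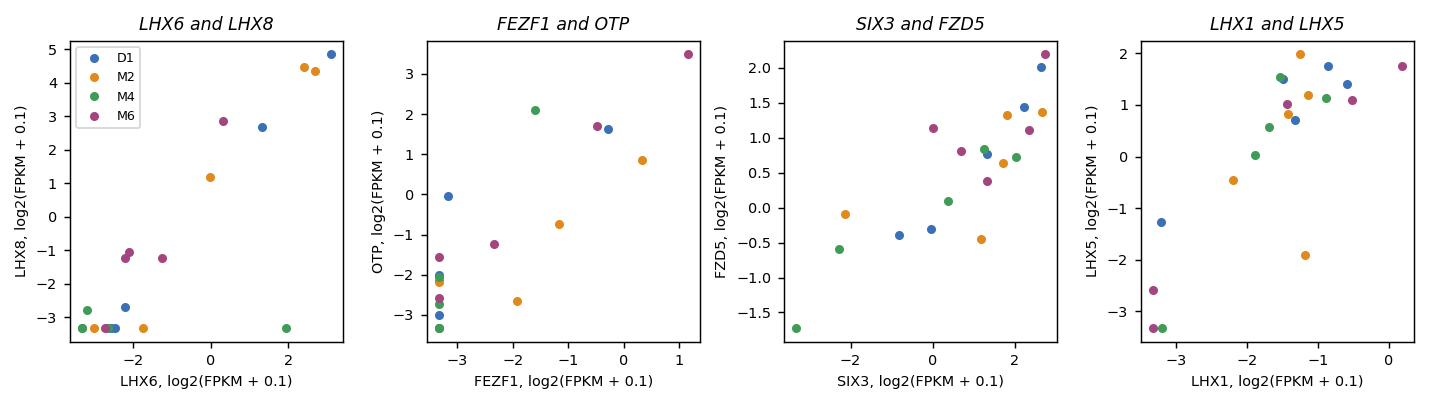
Log2(FPKM + 0.1) of 4 members (x axes) against a gene among the 3 most like each (y axes), 1 point per library coloured by stage. *LHX6* and *LHX8* (r = 0.85) rise together but for 1 M4 library with *LHX8* at 0; *FEZF1* and *OTP* (r = 0.86), *SIX3* and *FZD5* (r = 0.85) and *LHX1* and *LHX5* (r = 0.83) do so too, with the column of points at the left edge of the *FEZF1* panel at 0 FPKM.

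A further 40 transcription factors of hypothalamic areas were read in the same fit. Of these 36 were tested and 0 passed in any comparison. At an unadjusted p under 0.05, limma gave 5 of the 36 for M6 vs. M4 (6.87% of all tested genes), 4 for M4 vs. M2 (8.68%) and 1 for each other comparison (15.6% for M2 vs. D1, 8.71% for M4 vs. D1, 7.41% for M6 vs. D1 and 6.14% for M6 vs. M2). *NR0B1*, the DAX1 nuclear receptor, which binds NR5A1, had the smallest adjusted p of these, 0.313 in M2 vs. D1 (log2 fold change -0.99, limma). *ISL1*, a factor of arcuate neurons, had log2 fold changes of -2.88 in M4 vs. D1 (adjusted p = 0.438, limma) and 3.54 in M6 vs. M4 (adjusted p = 0.700). The factors of the highest mean level, *RORA* and *ARNT2*, were above 1 FPKM in each of the 20 libraries. The median fold change of the 36 was -0.32 in M4 vs. M2 and 0.15 in M6 vs. M4, against -0.02 and 0.04 over all tested genes.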

How the data were processed

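Hypothalamic RNA of 20 female goats was sequenced as 1 strand-specific library per goat depleted of rRNA. The authors cleaned reads with fastp, used HISAT2 2.0.5 to align them to the goat genome ARS1.2 and StringTie 1.3.3b to assemble transcripts, and deposited FPKM values for 21071 genes. Whether fragments were assigned by strand is not given in the sources used here, so reads of a gene and of an antisense transcript may be mixed. Each library's FPKM summed to between 260199 and 377479. The values do not fall on steps of 1 read (at most 10% of low genes shared the commonest ratio between 2 libraries). The reads behind each value could thus not be taken from the values themselves. The paper reports clean reads and mapping rates, but these were not used here, and no counting error is given.

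The test covered the 16771 genes that reached 0.1 FPKM in 5 or more libraries, among them 7 of the 9 members. The log2(FPKM + 0.1) scale was used, which understates the change of low genes. limma 3.58.1 (R 4.3.3) was run over all 20 libraries with stage as the factor, a trend on mean expression and no block. Benjamini-Hochberg adjustment was made within each comparison over every tested gene. Called genes had an adjusted p under 0.05 with a log2 change of 1 or more in size. The model was checked on simulated independent normal values with known changes. These lack the zeros, the skew and the shared library differences of the data, so the check does not cover them. Single members were also tested with two-sided exact permutation tests, and correlations with 100000 permutations, adjusted over 36 pairs. Python 3.11.15, pandas 2.3.3, numpy 2.4.6, scipy 1.17.1 and matplotlib 3.10.9 were used. Genome positions come from the RefSeq annotation of the same build. No sequences were used here.

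The members and the 15 lists of other genes were chosen with earlier results of these data known. Genes were named from the 9 members, the 3 tested genes most like each, and, of each list, the 2 of the highest mean FPKM and the one of the smallest adjusted p. Not every gene that this rule gives is named in the text. *NKX2-1*, *OTP*, *SIM1*, *LMX1B*, *LHX8*, *LHX2*, *GPR50*, *POMC*, *AGRP*, *SST* and the markers of libraries that stood apart were named after their values were seen. A few genes are not reported here and were left out of the lists. Leaving out the 5 libraries high in markers of other regions was also chosen after the data were seen. Alternatives were the pseudocount, the filter, the normalization between libraries, the trend, library weights, the replicate number as a block, only the libraries compared, a threshold on p without one on fold, and the omission of 1 library at a time.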

Additional observations from a re-analysis of the deposited data

Results flagged for a closer look

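Of the 36 sets of 5 libraries given by 1 member at 1 stage, 2 were at 0 throughout and 34 were examined for a library far from the others of its stage (a gap to the nearest library that takes more of the whole range than Dixon's limit for 5 values allows). In 14 of the 34 sets the highest library was this far, where chance flags about 1 in 20 sets of evenly spread values. The FPKM values of these members are skewed, and sets of 4 zeros and 1 value above 0 are flagged by construction.

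*SIX6* was far above the rest in M2 replicate 1 (0.331 FPKM), M4 replicate 4 (0.177 FPKM) and M6 replicate 4 (1.34 FPKM, against 0.142 in the next library). *FEZF1* was so in D1 replicate 1 (0.720 FPKM) and M4 replicate 4 (0.23 FPKM), and *NR5A1* in M2 replicate 1 (0.455 FPKM) and M6 replicate 4 (0.212 FPKM). *RAX* was so in M4 replicate 1 (0.0401 FPKM) and M6 replicate 2 (0.129 FPKM).

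*LHX6* was far above the rest in D1 replicate 1 (8.44 FPKM), M4 replicate 1 (3.71 FPKM) and M6 replicate 2 (1.15 FPKM). The summed telencephalon markers were 2.16, 63.5 and 1.06 times the median of the 20 libraries in these, and the summed striatum markers 0.958, 1.99 and 19.7 times. *FOXB1* was so in M2 replicate 3 (5.88 FPKM, against 1.49 in the next library), and *TBX3* in M6 replicate 5 (0.651 FPKM, against 0.327).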

How the results depend on the processing

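The number of called members was 0 in each of the 6 comparisons and in the F test under every alternative run. Outside the leave-one-out fits, 454 of 474 fold changes kept their sign and 0 passed the threshold. The adjusted p of *FOXB1* in M2 vs. D1 was between 0.0945 and 0.449 over its alternatives, and that of *TBX3* in M4 vs. D1 between 0.118 and 0.697 (limma). The other 20 fold changes reversed, and apart from the fits with fewer libraries the cause was not tested. With a pseudocount of 1 FPKM, M2 vs. D1 was 0.069 for *SIX3* and -0.028 for *LHX1*, M6 vs. M4 was -0.086 for *LHX6*, and *LHX1* was 0.028 for M6 vs. D1 and 0.056 for M6 vs. M2. With 0.01 FPKM, *LHX1* was -0.45 in M6 vs. M4. In M2 vs. D1, *SIX3* was 0.042 with median-ratio scaling and 0.024 with the same summed FPKM, and *LHX1* was -0.12 with quantile normalization. With library quality weights, *SIX3* was 0.25 and *LHX1* -0.10 in M2 vs. D1, *SIX6* was 0.40 in M4 vs. M2, and *FEZF1* was -0.33 and *FOXB1* 0.11 in M6 vs. M2. Without the 5 libraries high in markers of other regions, *LHX1* was -0.38 for M2 vs. D1, 0.0057 for M4 vs. M2 and 0.17 for M6 vs. M2, and *SIX3* was 0.58 for M4 vs. M2, -0.028 for M6 vs. M4 and 0.55 for M4 vs. D1. Leaving out 1 library at a time reversed 30 of 840 fold changes, and 0 passed the threshold. The ranges of those that reversed were, in M2 vs. D1, -0.50 to 0.77 for *SIX3*, -0.031 to 1.54 for *LHX6* and -0.38 to 0.28 for *LHX1*. For M4 vs. M2 the range was -0.42 to 0.29 for *SIX6*, and for M6 vs. M4 it was -0.31 to 0.57 for *LHX1*. In M4 vs. D1 *FEZF1* ran from -0.64 to 0.30. In M6 vs. D1 *SIX6* ran from -0.91 to 0.25, *SIX3* from -0.12 to 0.75 and *LHX1* from -0.66 to 0.22. In M6 vs. M2 *FEZF1* ran from -0.49 to 0.77, *SIX6* from -0.10 to 1.03, *SIX3* from -0.42 to 0.78 and *LHX1* from -0.71 to 0.17.

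The goats of the stages share replicate numbers but are different animals. Deviations of same-numbered libraries from their stage means had correlations with a median of -0.011 (range -0.246 to 0.430 over 30 pairs, 7 above 0.1), so the numbers do not pair the samples. With the replicate number as a block the number of called members was 0 in each comparison, and *FOXB1* in M2 vs. D1 had a log2 fold change of 2.18 and an adjusted p of 0.228 (limma).

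No read numbers came with the FPKM values, and the clean reads that the paper reports were not used. Levels near 0.1 FPKM were therefore not told from 0 with a stated error. *SIX6*, *FEZF1*, *NR5A1* and *RAX* were listed at 0 in 11 to 15 libraries. Scaling moved the median fold change of all tested genes to at most 0.08 in size.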

Other observations

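Some peptide genes of hypothalamic neurons were carried by few goats as well. *OXT* had a median of 0.558 FPKM over the 20 libraries and reached 413 FPKM in M6 replicate 4, and *AVP* had a median of 1.52 FPKM and reached 392 FPKM in M4 replicate 4. *PMCH*, the precursor of melanin-concentrating hormone, had a median of 0.802 FPKM, and *HCRT*, the precursor of orexin, a median of 0.333 FPKM. Both peaked in M6 replicate 5, at 375 and 183 FPKM. Other peptide genes were more widespread: *POMC* and *SST* were above 0 in every library, with medians of 1.60 and 10.4 FPKM. The log2 fold change of *OXT* was 5.81 for M6 vs. M4 (adjusted p = 0.700, limma), and that for M6 vs. D1 was 4.97 (adjusted p = 0.618, limma), so neither passed the test.

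Of the 96 distinct genes tested in the 15 lists outside the members, 0 were called in any comparison (limma), and the smallest adjusted p was 0.277 for *NES*, an intermediate filament gene of progenitors and tanycytes, in M2 vs. D1 (log2 fold change -1.04). In the tanycyte list, 1 of 4 tested genes had an unadjusted p under 0.05 for M6 vs. M2 (6.14% of all tested genes), for M2 vs. D1 (15.6%) and for M6 vs. D1 (7.41%). For M6 vs. D1 it was *DIO2*, which encodes an enzyme that activates thyroid hormone, with a log2 fold change of -2.04 (adjusted p = 0.446, limma). In the GABA neuron list, led by *GAD2* and *GAD1*, the median fold change of the 14 tested genes was -0.88 in M4 vs. D1 and 0.57 in M6 vs. M4, against -0.07 and 0.04 over all tested genes.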
